A study of Homo sapiens with 12 samples.

Results

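This report describes 8 laminin chain genes, LAMA1, LAMA3, LAMA4, LAMA5, LAMB1, LAMB2, LAMB3 and LAMC1, in RNA sequencing of triple-negative breast cancer cells. They were taken by gene name from an RPKM table of 32152 genes, which lists 12 laminin genes in all. RPKM is the number of reads on a gene relative to the gene's length and to the size of the library. Each of the 8 chains was followed through all 12 libraries.

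Laminins are cross-shaped proteins of the basement membrane, each built from 1 alpha, 1 beta and 1 gamma chain, and the digits in a laminin's name give its chains in that order. The alpha chain carries the globular domains that cells bind through integrins and dystroglycan, so it largely sets which receptor a laminin engages. Beta and gamma chains assemble first inside the cell, and secretion of the trimer depends on the alpha chain joining them. Laminin-332, which holds LAMA3 and LAMB3, anchors epithelia at hemidesmosomes, laminin-411 (LAMA4, LAMB1, LAMC1) is known from vessel walls and mesenchymal tissue, and laminin-511 (LAMA5, LAMB1, LAMC1) is widespread under mature epithelia, mammary epithelium included.

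MDA-MB-231 and Hs-578T are human triple-negative breast cancer lines with mesenchymal traits. From each line there were 2 libraries of parental cells, 2 labelled ERK5-ko (CRISPR/Cas9 with guides against MAPK7, the gene of the kinase ERK5) and 2 labelled MEK5DD, the usual name of a constitutively active form of MEK5. MEK5, encoded by MAP2K5, is the kinase that activates ERK5, and how the MEK5DD cells were made is not given in the sources used here. All cultures were harvested at 70% confluence. The MDA-MB-231 passages were 29 and 30 for parental cells, 7 and 8 for ERK5-ko and 10 and 11 for MEK5DD. The Hs-578T passages were 83 and 84 for parental cells, 8 and 9 for ERK5-ko and 8 and 9 for MEK5DD. The ERK5-ko cells were grown from sorted single cells, and the MDA-MB-231 ERK5-ko line descends from 1 surviving clone. Which Hs-578T clone was sequenced is not given in the sources used here, and label, clone and passage cannot be told apart. The labels tell the 2 libraries of a group apart by passage and name no separate cultures, so p-values measure the spread between these libraries.

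Library totals solved from the RPKM values ran from 20248162 to 27791195 reads. MAPK7 RNA lay between 13.3 and 18.1 RPKM in all 12 libraries. It did not fall under the ERK5-ko label, with log2 fold changes of 0.29 in MDA-MB-231 (limma adjusted p = 0.0710) and 0.26 in Hs-578T (limma adjusted p = 0.0624). A knockout made by small insertions or deletions need not lower the RNA, so this level does not check the label. MAP2K5 was higher in the MEK5DD libraries of both lines, by 3.77 on the log2 scale in MDA-MB-231 (limma adjusted p = 3.31e-10) and by 0.50 in Hs-578T (limma adjusted p = 0.00492). Of the receptor genes behind the triple-negative label, ESR1 and PGR were under 0.5 RPKM in every library and ERBB2 was at 27.8 to 56.9 RPKM, while 7 of 8 markers of leukocytes, endothelium and muscle were under 0.5 RPKM, with PECAM1 as the exception. The summed level of 6 luminal epithelial markers was 1170 to 2620 RPKM in MDA-MB-231 and 190 to 627 RPKM in Hs-578T, and that of 4 basal epithelial markers 1.2 to 2.86 RPKM and 7.25 to 159 RPKM. The sum of 4 mesenchymal markers was 2500 to 4810 RPKM and 11400 to 18400 RPKM respectively. SPARC made up most of that gap, at 0.854 RPKM in parental MDA-MB-231 and 8015 RPKM in parental Hs-578T, whereas the means of CD44 were 888 and 1009 RPKM and those of ZEB1 30.6 and 25.5 RPKM. KRT8, KRT18 and KRT19 made up most of the luminal sum in parental MDA-MB-231, at 710, 370 and 503 RPKM. CDH1 was at 0.645 RPKM there. ESRP1 was the luminal marker with the opposite order, at 0.0879 RPKM in parental MDA-MB-231 and 1.11 RPKM in parental Hs-578T. Of the basal markers, KRT14 was at 0.0316 and 37.2 RPKM in these groups, while TP63 was higher in MDA-MB-231, at 1.83 and 1.03 RPKM.

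The results turn most on LAMA4, LAMA5 and LAMB3, and on LAMA3, the partner of LAMB3 in laminin-332, so the sequences just before the start sites of these 4 are shown. RefSeq (GRCh38.p14) promoter entries were found for 7 of the 8 chains. In the lines below, 150 bases before the start site are written 5′ to 3′ on the gene's strand, and capitals mark matches, on either strand, to an AP-1 site (TGANTCA), a GC box (GGGCGG) or a MEF2 site (CTA and TAG with any 4 bases between), the last being the site of a factor that ERK5 is known to activate. The capitals that open the LAMA5 line are the end of a GC box that begins before the bases shown.
LAMA3, chr18:23872870-23873019, plus strand: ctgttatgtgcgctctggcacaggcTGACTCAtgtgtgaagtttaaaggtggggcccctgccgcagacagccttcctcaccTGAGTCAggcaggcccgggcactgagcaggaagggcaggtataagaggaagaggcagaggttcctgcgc
LAMB3, chr1:209651375-209651524, minus strand: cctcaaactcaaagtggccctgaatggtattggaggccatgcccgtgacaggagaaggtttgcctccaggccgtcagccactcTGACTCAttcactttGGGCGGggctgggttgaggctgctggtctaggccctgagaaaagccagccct
LAMA4, chr6:112254568-112254717, minus strand: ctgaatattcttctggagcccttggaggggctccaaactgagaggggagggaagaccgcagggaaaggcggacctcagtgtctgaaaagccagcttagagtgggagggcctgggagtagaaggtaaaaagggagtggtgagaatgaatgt
LAMA5, chr20:62367313-62367462, minus strand: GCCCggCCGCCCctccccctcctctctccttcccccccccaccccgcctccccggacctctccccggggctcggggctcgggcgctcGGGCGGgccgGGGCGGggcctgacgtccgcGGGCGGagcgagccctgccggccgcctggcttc

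These motifs were counted in the 250 bases before each start. LAMA3 held 2 AP-1 matches, TGACTCA at 125 to 119 bases and TGAGTCA at 69 to 63 bases before the start, and LAMB3 held 1, TGACTCA at 67 to 61 bases before the start at 209651374. Of the 35116 promoters in the table, 6.57% held an AP-1 match in a window of this length. The other 2 listed LAMB3 starts, at 209652425 and 209652329, held a GC box and no AP-1 match. LAMA5 held 5 GC boxes, a motif present in 42.6% of all promoters, and LAMA4 held none of the 3 motifs. LAMA5, LAMB1, LAMB2 and LAMC1 held GC boxes and no AP-1 match. MEF2 matches were absent from these windows of all 7 chains and present in 2.36% of all promoters. The LAMA3 start shown lies inside the gene (chromosome 18, 23689443 to 23955066, GRCh38), downstream of its first annotated base. So do the LAMB3 start shown, at 209651374, and the LAMA4 start shown, at 112254567. On the minus strand the first annotated bases of these genes are 209652466 and 112254939. A match is a description of the letters, and neither binding nor the start in use in these cells was measured.

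The levels of different chains can be compared only per length, and the length behind the deposited RPKM was close to the mean length of a gene's annotated transcripts, short fragments included. For LAMA5 the solved length was 1630 bases against 11426 bases for its longest coding transcript, a 7.01-fold gap, whereas for LAMB3 it was 2766 against 4305 bases, a 1.56-fold gap. The same reads were therefore also expressed per kilobase of each gene's longest coding transcript (GENCODE 29), a scale chosen after seeing the data. Ratios of 1 chain between libraries are the same on both scales. The main fits used RPKM as deposited, and values with 0.5 RPKM added would differ between the scales. Fold changes below are on the log2(RPKM + 0.5) scale, which understates the change of low genes, and a chain is said to have passed when its adjusted p over 13737 tested protein-coding genes was under 0.05. For 1 chain in 2 groups of 2 libraries the smallest two-sided p of an exact permutation test is 0.333, so the calls rest on limma's spread pooled over all 12 libraries.

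**Figure D1:**
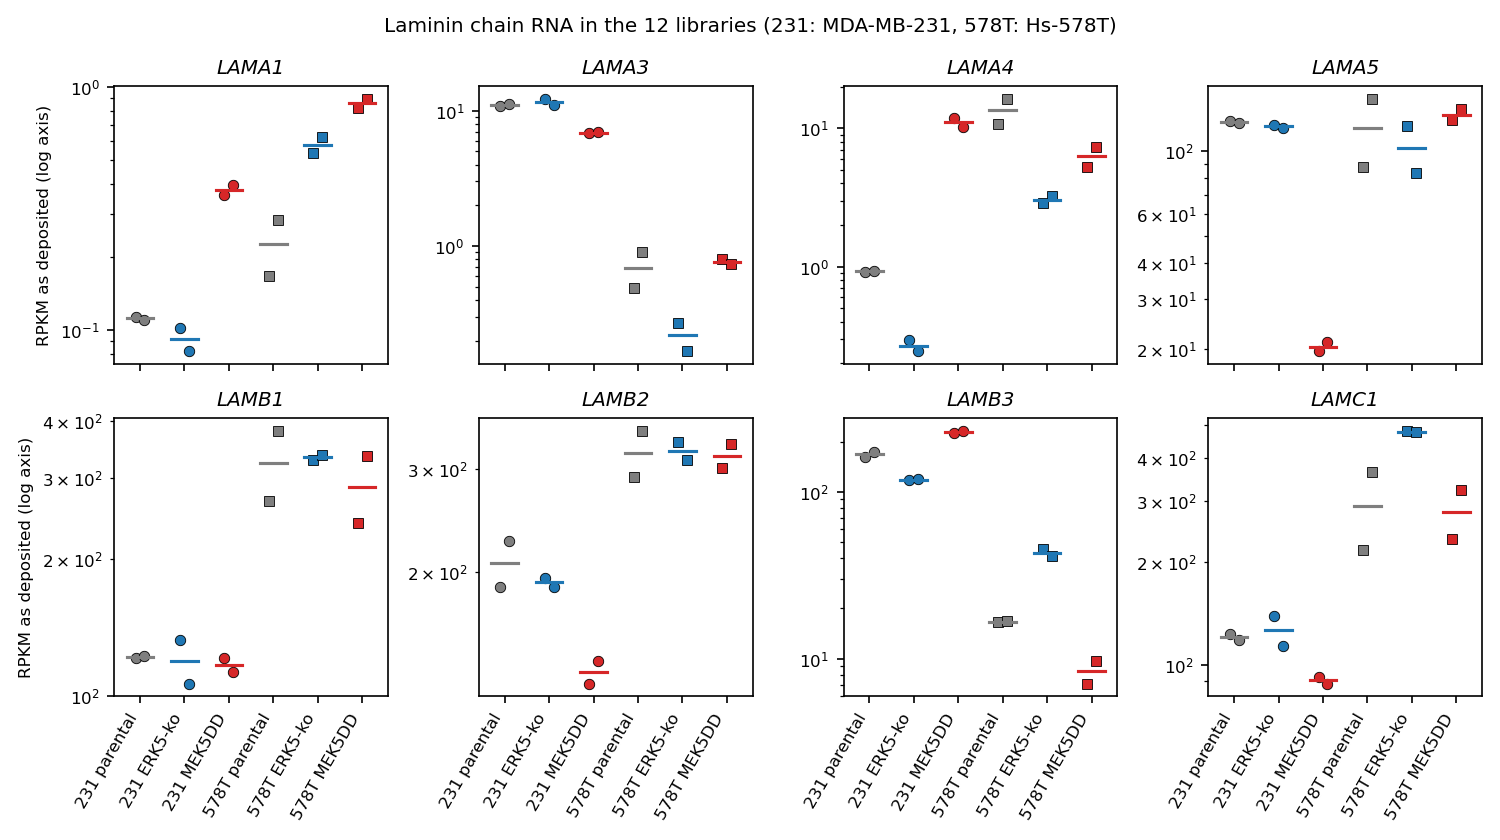
RPKM of each laminin chain as deposited, on a log axis that differs between panels, for the 2 libraries of each group (circles MDA-MB-231, squares Hs-578T, lines group means). LAMA4 spans 0.244 to 16.4 RPKM and LAMB3 7.07 to 231.4 RPKM, while LAMB1 stays between 106 and 381 RPKM.

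In parental cells all 8 chains had reads in both lines, at levels that differed for most of them. LAMA3 was 15.9-fold and LAMB3 10-fold higher in mean RPKM in MDA-MB-231 than in Hs-578T, whereas LAMA4 was 14.6-fold, LAMB1 2.66-fold, LAMC1 2.4-fold and LAMB2 1.54-fold lower. These 6 of 8 chains passed (limma adjusted p between 3.09e-10 and 0.000453), beside 77.4% of all tested genes between the parental lines, so the share of chains that passed was near the background. LAMA5 and LAMA1 did not pass, with log2 differences of 0.13 (limma adjusted p = 0.608) and -0.24 (limma adjusted p = 0.0567). Without Hs-578T parental replicate 2 the LAMA5 difference was 0.53 and passed (limma adjusted p = 0.0173). The LAMA1 difference passed with a pseudocount of 0.1, without a filter, with median-ratio scaling and by voom (limma adjusted p between 0.0198 and 0.0248). Without Hs-578T parental replicate 1 it was -0.36. It changed sign with quantile normalization, and the parental libraries held only 11 to 23 reads of LAMA1. LAMA3 and LAMB3 belong to the same trimer, laminin-332, and their log2 differences were both 3.29. The added 0.5 RPKM shrinks the LAMA3 value, as parental Hs-578T cells had a mean of 0.693 RPKM of it against 16.7 RPKM of LAMB3. In mean RPKM the differences of these 2 chains were not equal.

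LAMA4, the alpha chain of laminin-411 and laminin-421, changed in all 4 comparisons with parental cells, and not in 1 direction. In MDA-MB-231 the 2 parental libraries had 0.917 and 0.935 RPKM, the 2 labelled ERK5-ko 0.294 and 0.244 RPKM, and the 2 labelled MEK5DD 11.9 and 10.2 RPKM. In Hs-578T the parental libraries had 10.7 and 16.4 RPKM, those labelled ERK5-ko 2.87 and 3.22 RPKM, and those labelled MEK5DD 5.24 and 7.27 RPKM. The groups did not overlap within either line, and parental cells were in the middle in MDA-MB-231 but highest in Hs-578T. The Hs-578T libraries labelled ERK5-ko had 4.45-fold less LAMA4 in mean RPKM than parental libraries (log2 fold change -1.96 ± 0.19 SE, limma adjusted p = 1.70e-05). In MDA-MB-231 the libraries labelled ERK5-ko had 3.45-fold less (-0.89 ± 0.19 SE, limma adjusted p = 0.00802), at only 11 to 47 reads per library. That call was lost without parental replicate 1, parental replicate 2 or ERK5-ko replicate 2, where the limma adjusted p was 0.0542, 0.0582 and 0.0629.

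Under MEK5DD the LAMA4 responses of the lines had opposite signs. MAP2K5 RNA itself was 14.1-fold above parental libraries in MDA-MB-231 and 1.43-fold in Hs-578T, so the lines were not compared at a like MAP2K5 rise. MDA-MB-231 MEK5DD libraries had 12-fold more LAMA4 RNA than parental libraries (log2 fold change 3.02 ± 0.19 SE, limma adjusted p = 2.61e-07), from 41 to 47 reads up to 512 to 519 reads. Hs-578T MEK5DD libraries had 2.16-fold less (-1.04 ± 0.19 SE, limma adjusted p = 0.00278), a call that was lost when only the Hs-578T libraries entered the fit (limma adjusted p = 0.0653). The difference between the lines was itself past the threshold, at 4.06 ± 0.27 SE on the log2 scale (limma adjusted p = 8.83e-07). With that increase, the mean LAMA4 of MDA-MB-231 MEK5DD cells was 11.1 ± 1.22 RPKM (SD, n = 2), next to 13.5 ± 4.0 RPKM (SD, n = 2) in parental Hs-578T cells, and the libraries of these 2 groups overlapped. LAMA4 exons share 206 bases with an antisense gene. The library kit marks strand, but whether the counting used it is not given in the sources used here, so reads of an antisense partner could be included.

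LAMA5, the alpha chain of laminin-511 and laminin-521, passed in 1 of the 4 comparisons with parental cells. MDA-MB-231 parental libraries had 127 and 125 RPKM, those labelled ERK5-ko 124 and 121 RPKM, and those labelled MEK5DD 19.5 and 21.1 RPKM. The MEK5DD libraries were thus 6.21-fold below parental libraries (log2 fold change -2.61 ± 0.22 SE, limma adjusted p = 2.78e-06). Under the ERK5-ko label the log2 fold change was -0.05, with a 95% interval from -0.53 to 0.43 (limma adjusted p = 0.932). In Hs-578T the parental libraries had 87.4 and 153 RPKM, those labelled ERK5-ko 122 and 83.4 RPKM, and those labelled MEK5DD 128 and 140 RPKM, so that parental libraries overlapped with both other groups. Neither Hs-578T comparison passed (-0.20, limma adjusted p = 0.511, and 0.21, limma adjusted p = 0.529). Leaving out Hs-578T parental replicate 1 gave -0.60 for ERK5-ko (limma adjusted p = 0.0245), and leaving out parental replicate 2 gave 0.62 for MEK5DD (limma adjusted p = 0.0347), so the spread of these 2 libraries decides both values. The MEK5DD effect on LAMA5 differed between the lines by -2.82 ± 0.31 SE on the log2 scale (limma adjusted p = 3.87e-05). LAMA5 shares 244 exonic bases with ADRM1 and 118 with LAMA5-AS1, both on the opposite strand.

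LAMA3, the alpha chain of the epithelial laminin-332, was higher in every MDA-MB-231 library than in any Hs-578T library. Its libraries had 10.9 and 11.2 RPKM in parental cells, 12.3 and 11.1 RPKM in those labelled ERK5-ko and 6.82 and 6.96 RPKM in those labelled MEK5DD. All Hs-578T libraries were below 1 RPKM, at 0.489 and 0.898 in parental cells, 0.272 and 0.166 in those labelled ERK5-ko and 0.797 and 0.741 in those labelled MEK5DD. In MDA-MB-231 the MEK5DD libraries were 1.6-fold below parental libraries (log2 fold change -0.64 ± 0.15 SE, limma adjusted p = 0.00541), while those labelled ERK5-ko overlapped with parental libraries (0.08, limma adjusted p = 0.794). In Hs-578T it was the libraries labelled ERK5-ko that were lower, 3.16-fold in mean RPKM (-0.71 ± 0.15 SE, limma adjusted p = 0.00338), on 13 and 23 reads against 36 and 60 reads. MEK5DD and parental libraries of Hs-578T overlapped (0.11, limma adjusted p = 0.656).

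LAMA1, the alpha chain of laminin-111, was close to the detection limit everywhere, from 0.0819 to 0.897 RPKM or 8 to 72 reads. It entered the tests only through the Hs-578T libraries labelled ERK5-ko (0.536 and 0.622 RPKM) and MEK5DD (0.820 and 0.897 RPKM), the groups in which it was highest, so that its differences there were favoured by the filter. Against the Hs-578T parental libraries (0.168 and 0.284 RPKM) the log2 fold changes were 0.58 and 0.91 (limma adjusted p = 0.00144 and 0.000189). MDA-MB-231 MEK5DD libraries had 0.361 and 0.396 RPKM against 0.114 and 0.110 RPKM in parental cells (0.52, limma adjusted p = 0.00216), and those labelled ERK5-ko had 0.102 and 0.0819 RPKM (-0.05, limma adjusted p = 0.821). LAMA1 exons share 1641 and 113 bases with 2 antisense genes, which leaves the origin of so few reads uncertain.

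LAMB3, the beta chain found in laminin-332, passed in all 4 comparisons with parental cells, with opposite signs in the 2 lines under both labels. In MDA-MB-231 the parental libraries had 162 and 174 RPKM, those labelled ERK5-ko 117 and 119 RPKM, and those labelled MEK5DD 224.4 and 231.4 RPKM. In Hs-578T the parental libraries had 16.6 and 16.9 RPKM, those labelled ERK5-ko 45.3 and 41.0 RPKM, and those labelled MEK5DD 7.07 and 9.73 RPKM. No 2 of the 6 groups overlapped, and the order ERK5-ko, parental, MEK5DD rose in MDA-MB-231 and fell in Hs-578T. The libraries labelled ERK5-ko were 2.58-fold above parental libraries in Hs-578T (log2 fold change 1.34 ± 0.12 SE, limma adjusted p = 1.12e-05) and 1.42-fold below them in MDA-MB-231 (-0.51 ± 0.12 SE, limma adjusted p = 0.0158). The MEK5DD libraries were 1.99-fold below parental libraries in Hs-578T (-0.97 ± 0.12 SE, limma adjusted p = 0.000305) and 1.36-fold above them in MDA-MB-231 (0.44 ± 0.12 SE, limma adjusted p = 0.0133).

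Tests of the difference between the lines gave -1.85 ± 0.17 SE for the ERK5-ko effect on LAMB3 (limma adjusted p = 1.74e-05) and 1.41 ± 0.17 SE for the MEK5DD effect (limma adjusted p = 8.69e-05). Both MDA-MB-231 calls depended on single libraries. Without any 1 of the 4 parental and ERK5-ko libraries the ERK5-ko call was lost (limma adjusted p between 0.0645 and 0.123). The MEK5DD call was lost without parental replicate 1 or either MEK5DD library (limma adjusted p = 0.0968, 0.0557 and 0.0789).

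LAMB1 and LAMB2 are the beta chains that pair with LAMC1 in most laminins. LAMB1 passed in no comparison within a line, with log2 fold changes against parental cells between -0.17 and 0.06. Its MDA-MB-231 libraries ranged from 106 to 133 RPKM and its Hs-578T libraries from 239 to 381 RPKM, and these ranges did not overlap. LAMB1 shares 70 exonic bases with DLD and 221 with an antisense gene. LAMB2 was lower in the MDA-MB-231 MEK5DD libraries, at 129 and 141 RPKM against 189 and 226 RPKM in parental libraries (1.53-fold, log2 fold change -0.61 ± 0.12 SE, limma adjusted p = 0.00139). The libraries labelled ERK5-ko had 196 and 189 RPKM and overlapped with parental libraries (-0.10, limma adjusted p = 0.613). All 6 Hs-578T libraries lay between 290 and 348 RPKM, and neither comparison there passed (limma adjusted p = 0.928 and 0.966).

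LAMC1, the gamma chain of laminin-111, laminin-411 and laminin-511, passed in 1 comparison with parental cells. Hs-578T parental libraries had 217 and 363 RPKM, those labelled ERK5-ko 479 and 475 RPKM, and those labelled MEK5DD 233 and 323 RPKM. The libraries labelled ERK5-ko were 1.64-fold higher (log2 fold change 0.76 ± 0.21 SE, limma adjusted p = 0.0137), with no overlap. The 2 parental libraries were far apart, and without parental replicate 1 the value was 0.39 and the call was lost (limma adjusted p = 0.115). It was also lost without either ERK5-ko library (limma adjusted p = 0.0665 and 0.0761) and in a fit of the Hs-578T libraries alone (limma adjusted p = 0.101). In MDA-MB-231 the parental libraries had 123 and 118 RPKM, those labelled ERK5-ko 139 and 114 RPKM, and those labelled MEK5DD 92.6 and 88.3 RPKM. The MEK5DD value of -0.41 missed the threshold (limma adjusted p = 0.140) and passed it with the replicate block (limma adjusted p = 0.0366). It also passed in a fit of the MDA-MB-231 libraries alone (limma adjusted p = 0.0243).

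**Figure D2:**
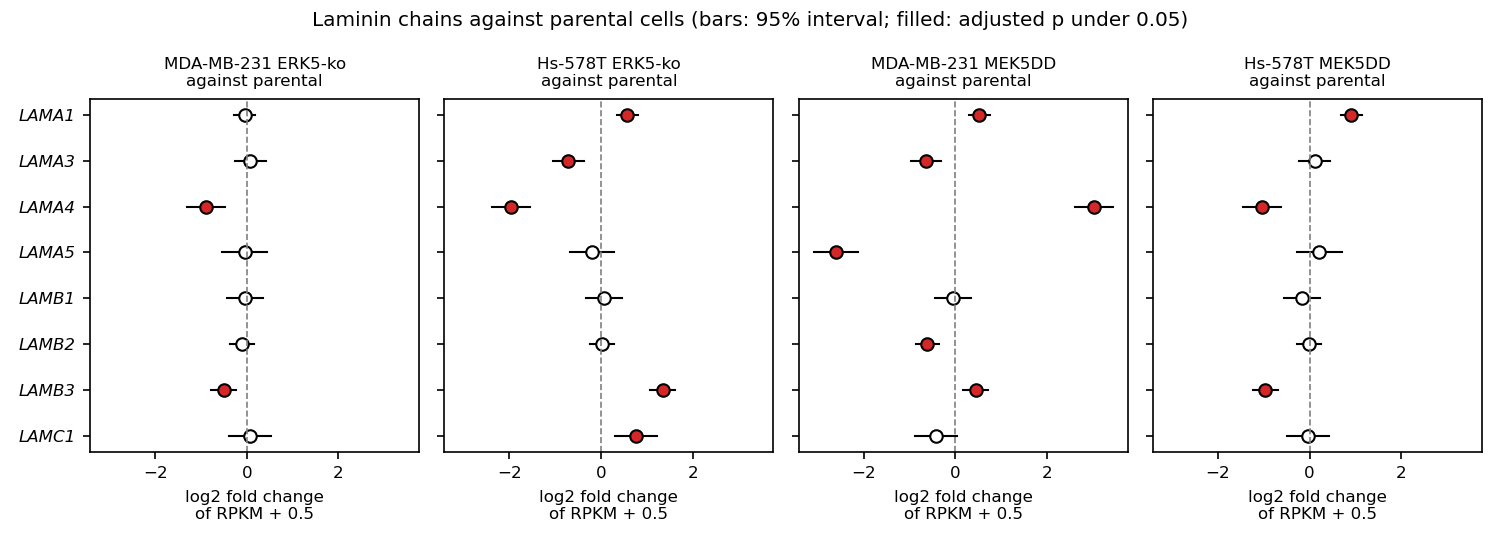
Log2 fold change of RPKM + 0.5 against parental cells for each chain, with the 95% interval of the limma fit as a bar and filled points for adjusted p under 0.05. LAMA4 and LAMB3 are filled in all 4 panels, with LAMA4 at 3.02 and LAMA5 at -2.61 in the MDA-MB-231 MEK5DD panel, and LAMB1 is open in all 4.

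Counted over the 8 chains, the libraries labelled ERK5-ko had 0 higher and 2 lower than parental cells in MDA-MB-231, where 6.91% of all tested genes were higher and 10.4% lower. In Hs-578T they had 3 higher and 2 lower, where 19.7% of tested genes were higher and 19.7% lower. The MDA-MB-231 count of 2 lower chains fell to 0 without parental replicate 1, parental replicate 2 or ERK5-ko replicate 2, and to 1 without ERK5-ko replicate 1. MEK5DD libraries had 3 higher and 3 lower chains in MDA-MB-231, beside 17.5% and 23.8% of tested genes, and 1 higher and 2 lower in Hs-578T, beside 6.44% and 17% of tested genes. The higher chain there was LAMA1, and without Hs-578T parental replicate 2 LAMA5 joined it. LAMA1, also 1 of the 3 higher chains in the Hs-578T libraries labelled ERK5-ko, was tested only because it was high in these 2 groups, so both counts include a chain that the filter favoured. It is also 1 of the 3 higher chains in MDA-MB-231 MEK5DD, where it was at 0.361 and 0.396 RPKM. The median log2 fold change of the 8 chains lay between -0.24 and 0.04 in these 4 comparisons, near the all-gene medians of -0.08 to 0.01, while single chains ranged from -2.61 to 3.02. In bulk RNA, fewer cells of a type and less RNA per cell cannot be told apart.

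The 2 engineered lines were also set against each other, and these comparisons share libraries with those above. In MDA-MB-231 the libraries labelled ERK5-ko had more LAMA5, LAMA3 and LAMB2 than the MEK5DD libraries (log2 differences 2.56, 0.72 and 0.51) and less LAMA4, LAMB3 and LAMA1 (-3.91, -0.95 and -0.57). That is 3 higher and 3 lower of 8 chains, where 27.1% and 27.9% of tested genes were higher and lower. In Hs-578T those labelled ERK5-ko had more LAMB3 and LAMC1 (2.31 and 0.80) and less LAMA4, LAMA3 and LAMA1 (-0.92, -0.82 and -0.33), where 30.7% and 19.2% of tested genes were higher and lower. LAMA1, counted in both lines, entered the tests only through these 2 Hs-578T groups. The LAMC1 call was lost without ERK5-ko replicate 2 or MEK5DD replicate 1 (limma adjusted p = 0.0502 and 0.0753), and the LAMA1 call without ERK5-ko replicate 1 or MEK5DD replicate 2 (limma adjusted p = 0.112 and 0.0728). The LAMA1 call was also lost with a pseudocount of 0.1 (limma adjusted p = 0.0633), and in a fit of that line alone both were lost (limma adjusted p = 0.0732 for LAMC1 and 0.0616 for LAMA1). In MDA-MB-231 the LAMC1 difference of 0.48 missed the threshold (limma adjusted p = 0.0741) and passed it with the replicate block (limma adjusted p = 0.015). It also passed in a fit of the MDA-MB-231 libraries alone (limma adjusted p = 0.012).

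In MDA-MB-231 the levels of LAMA5 and LAMA4 came close to each other under MEK5DD. Per kilobase of longest coding transcript, LAMA5 was at 18.2 and 17.9 and LAMA4 at 0.253 and 0.258 in parental libraries. In MEK5DD libraries LAMA5 was at 2.79 and 3.01 and LAMA4 at 3.3 and 2.82. The ratio of LAMA5 to LAMA4 was therefore 71.7 and 69.2 in parental libraries, 217 and 256 in those labelled ERK5-ko, and 0.846 and 1.07 in those labelled MEK5DD. LAMA4 made up 36.8% ± 3.4 (SD, n = 2) of the summed alpha-chain level in MEK5DD libraries against 1.17% ± 0.0245 (SD, n = 2) in parental libraries. With RPKM as deposited the shares were 28.5% and 0.668%, and LAMA5 stayed above LAMA4 by 1.64-fold and 2.07-fold in the MEK5DD libraries. Per longest coding transcript the 2 MEK5DD libraries differed in which of these chains was the higher.

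In Hs-578T LAMA5 was the leading alpha chain in every library on both scales. LAMA4 made up 17% ± 1.36 (SD, n = 2) of the alpha sum per longest coding transcript in parental libraries, 5.32% ± 1.69 (SD, n = 2) in those labelled ERK5-ko and 7.46% ± 1.07 (SD, n = 2) in those labelled MEK5DD. LAMA5 to LAMA4 ratios were 4.21 and 4.82 in parental libraries, 22.0 and 13.4 in those labelled ERK5-ko and 12.6 and 9.97 in those labelled MEK5DD. Among the beta chains of MDA-MB-231, LAMB3 held 58.7% in parental libraries, 51.3% in those labelled ERK5-ko and 70.9% in those labelled MEK5DD. In Hs-578T its share was 6.59%, 14.9% and 3.59% respectively, on the same scale.

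**Figure D3:**
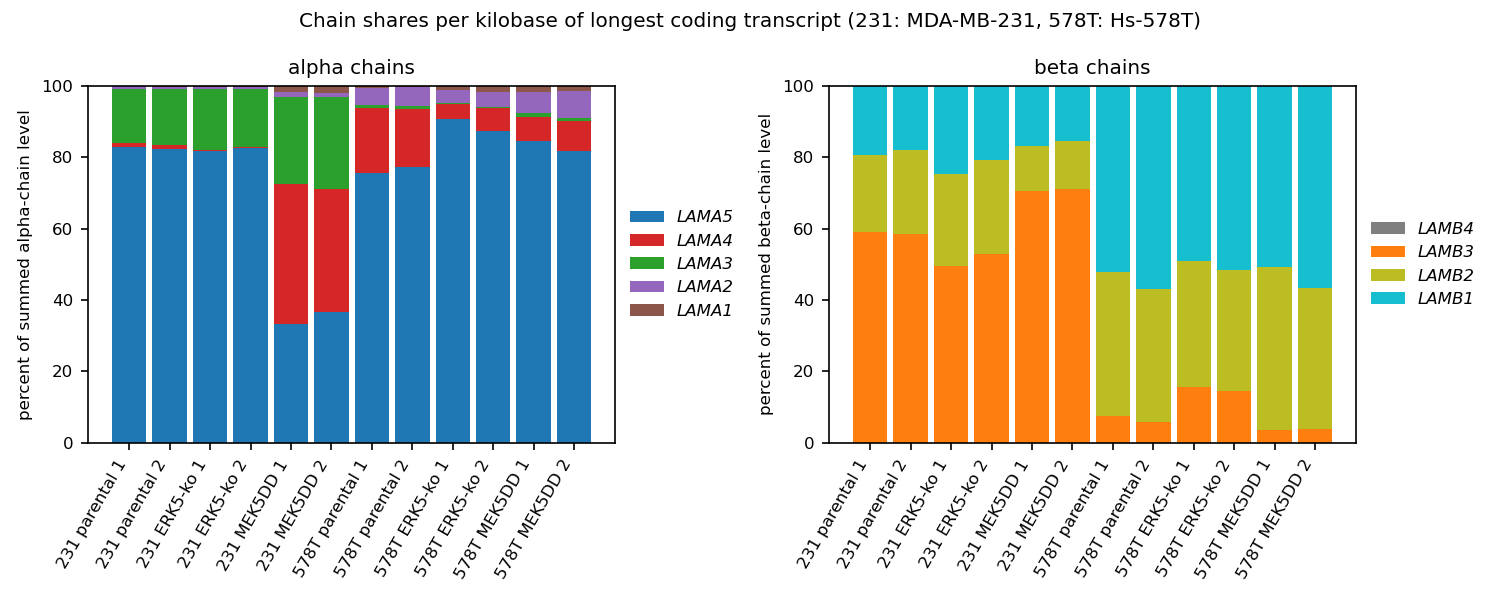
Share of each alpha chain (left) and beta chain (right) in the summed level of its family, in percent, per kilobase of longest coding transcript, with 1 bar for each of the 12 libraries. LAMA5 holds over 75% of the alpha sum in all libraries but the 2 MDA-MB-231 MEK5DD libraries, where it holds 33.2% and 36.7%.

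Per longest coding transcript the alpha chain had the lowest RNA level within each of the trimers compared. On this scale that held for all 60 combinations of the 12 libraries with 5 chain sets, those of laminin-111, laminin-411, laminin-421, laminin-511 and laminin-521. With RPKM as deposited it held for 54 of 60. The exceptions were laminin-511 and laminin-521 in the MDA-MB-231 parental libraries and ERK5-ko replicate 2, where LAMB1 or LAMC1 was lowest. All exceptions were thus sets that hold LAMA5. The sets share chains, so the 60 combinations are not separate observations. The ratios that follow are per longest coding transcript. In laminin-511 the next chain above LAMA5 exceeded it 1.62-fold ± 0.0259 (SD, n = 2) in parental MDA-MB-231 libraries, but 7.58-fold ± 0.664 (SD, n = 2) in the MEK5DD libraries of that line. In laminin-411 the next chain exceeded LAMA4 114-fold ± 4.67 (SD, n = 2) in parental MDA-MB-231 libraries, 414-fold ± 3.6 (SD, n = 2) in those labelled ERK5-ko and 7.2-fold ± 0.554 (SD, n = 2) in those labelled MEK5DD. The gap was thus widest where LAMA4 was lowest and narrowest under MEK5DD. The corresponding ratios in Hs-578T were 18.6 ± 1.22 (SD, n = 2) in parental libraries, 112 ± 6.9 (SD, n = 2) in those labelled ERK5-ko and 39 ± 0.0268 (SD, n = 2) in those labelled MEK5DD. RNA levels do not measure the trimers themselves.

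LAMA3 and LAMB3, the alpha and beta chains of laminin-332, did not keep a fixed ratio. Per longest coding transcript LAMB3 exceeded LAMA3 31.7-fold and 33-fold in MDA-MB-231 parental libraries, 20.3-fold and 22.8-fold in those labelled ERK5-ko and 69.9-fold and 70.7-fold in those labelled MEK5DD. In Hs-578T the ratios were 72 and 39.9 in parental libraries, 354 and 523 in those labelled ERK5-ko and 18.9 and 27.9 in those labelled MEK5DD. The ratio was thus highest under MEK5DD in MDA-MB-231 and under ERK5-ko in Hs-578T, with no overlap between groups of a line. In the Hs-578T libraries labelled ERK5-ko LAMA3 was at 0.0822 and 0.0503, on 23 and 13 reads, where LAMB3 was at 29.1 and 26.3.

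LAMA3 also has a short isoform, whose transcript of 5671 bases compares with 10661 bases for the longest. Per kilobase of that transcript LAMA3 was at 0.155 and 0.0946 in the Hs-578T libraries labelled ERK5-ko and at 6.17 and 6.36 in parental MDA-MB-231 libraries, and it remained below LAMB3 in all 12 libraries.

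**Figure D4:**
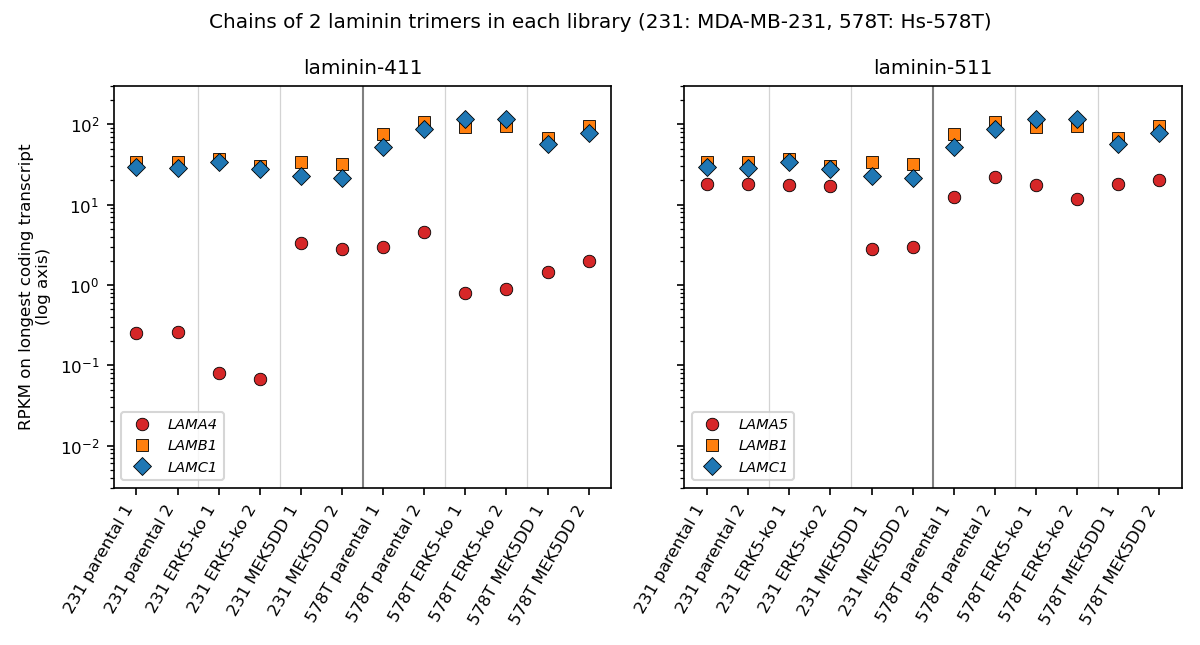
Levels of the 3 chains of laminin-411 (left) and laminin-511 (right) in each library, as RPKM on the longest coding transcript, on a shared log axis, with grey lines between groups. The alpha chain (circles) is lowest in every library, and in MDA-MB-231 MEK5DD libraries LAMA4 and LAMA5 lie close to each other at 2.79 to 3.3.

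The effects of each label were then compared between the lines by a test of the difference itself. For the ERK5-ko effect 4 of 8 chains differed between the lines, beside 39.8% of tested genes. They were LAMB3 (-1.85, MDA-MB-231 minus Hs-578T on the log2 scale), LAMA1 (-0.62), LAMA3 (0.79, limma adjusted p = 0.0133) and LAMA4 (1.07, limma adjusted p = 0.00896). LAMA1 entered the tests only through the Hs-578T libraries labelled ERK5-ko and MEK5DD, so this count includes a chain that the filter favoured. The LAMA4 value rests on the pseudocount, since its fall in mean RPKM was 3.45-fold in one line and 4.45-fold in the other, and with a pseudocount of 0.1 the difference was 0.61 and did not pass (limma adjusted p = 0.130). For LAMA3 the call was lost without Hs-578T ERK5-ko replicate 2 (limma adjusted p = 0.0621). LAMC1 missed the threshold at -0.70 (limma adjusted p = 0.0809) and passed with the replicate block (limma adjusted p = 0.017).

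For the MEK5DD effect 5 of 8 chains differed between the lines, beside 39.6% of tested genes. The rise of MAP2K5 under this label was unequal, 14.1-fold in MDA-MB-231 and 1.43-fold in Hs-578T. LAMA4 (4.06), LAMA5 (-2.82) and LAMB3 (1.41) kept their calls without any 1 library. LAMA3 (-0.75, limma adjusted p = 0.0167) and LAMB2 (-0.60, limma adjusted p = 0.0137) lost theirs without MDA-MB-231 parental replicate 2 or MEK5DD replicate 1, and LAMA3 also with a pseudocount of 0.1 (-0.85, limma adjusted p = 0.0603). Without Hs-578T parental replicate 2, LAMA1 and LAMC1 passed as well (-0.50 and -0.75). LAMA1, at -0.39 (limma adjusted p = 0.0613), also passed with a pseudocount of 1, without a filter, with median-ratio scaling and with quantile normalization (limma adjusted p between 0.0197 and 0.0384).

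Genes that work with laminins were taken as a list of 32, of which 28 were tested. It held 3 other laminin genes, laminin receptors, basement membrane partners, hemidesmosome and dystroglycan-glycosylation genes and laminin-processing proteases. In the MDA-MB-231 libraries labelled ERK5-ko 4 of the 28 were higher and 3 lower than in parental cells, beside 6.91% and 10.4% of all tested genes. COL17A1, the collagen of hemidesmosomes, was lower (log2 fold change -1.26, limma adjusted p = 6.55e-05), and BCAM, a receptor for the LAMA5 chain, was higher (0.69, limma adjusted p = 0.00161). In the Hs-578T libraries labelled ERK5-ko 5 of the 28 were higher, near the 19.7% of all tested genes, and 9 were lower, beside 19.7%. NID2, a nidogen that links laminin to collagen IV networks, was lower (-2.74, limma adjusted p = 6.31e-07), as was the membrane protease MMP14 (-1.14, limma adjusted p = 1.40e-05). ADAMTS1, a secreted metalloprotease, was higher (1.35, limma adjusted p = 2.41e-05), as was COL17A1 (0.72, limma adjusted p = 0.000898).

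MDA-MB-231 MEK5DD libraries had 3 higher and 11 lower of the 28, and 5 of 8 laminin receptors were among the lower genes, beside 17.5% of all tested genes higher and 23.8% lower. By limma 0 receptors were higher, 1 at an unadjusted p under 0.05 and 0 by voom on the recovered reads. By fold and threshold the 4 named there were ADAMTS1 (2.80, limma adjusted p = 3.45e-08), COL18A1 (-1.85, limma adjusted p = 5.06e-06), the heparan sulfate proteoglycan AGRN (-1.43, limma adjusted p = 3.23e-05) and COL4A5 (-1.06, limma adjusted p = 0.000228). COL18A1 and COL4A5 encode basement membrane collagens. Of the laminin receptors ITGA3, ITGA6, ITGB4, DAG1 and BCAM were the lower genes. Hs-578T MEK5DD libraries had 7 lower and 0 higher by limma, with 1 higher at an unadjusted p under 0.05 and 0 by voom. Over all tested genes this comparison had 6.44% higher and 17% lower. The median log2 fold change of the list was -0.10 and -0.06 in the libraries labelled ERK5-ko (MDA-MB-231, then Hs-578T) and -0.29 and -0.11 in those labelled MEK5DD. The 3 other laminin genes of the list were low, with LAMA2 at 0.195 to 3.56 RPKM, LAMB4 at no more than 6 reads and LAMC3 at no more than 2 reads in any library.

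The genes whose profile over the 12 libraries lay nearest to a chain were found for the 3 chains with the widest range of group means. For LAMB3 they were FAM111B, E2F8 and RIMKLB, with root mean square differences of 0.193, 0.198 and 0.313 on the centred log2 scale, against a LAMB3 range of 4.7. For LAMA3 they were OSBPL3, CTSS and CREG1 (0.246, 0.251 and 0.264, range 4.08), and for LAMA4 they were MSI2, KCNK1 and ADM (0.551, 0.563 and 0.576, range 4.16). The nearest genes to LAMA4 were thus further from it than those of the other 2 chains were from theirs. For LAMB3 and LAMA3 every MDA-MB-231 library lay above every Hs-578T library, so their profiles hold a step between the lines. For LAMA4 the MDA-MB-231 MEK5DD libraries overlapped with those of parental Hs-578T.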

How the data were processed

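RNA of the 12 cultures was made into libraries with a stranded poly(A) kit, and the authors deposited 1 table of RPKM values per gene, normalized to library and gene length. The submitters' processing notes name Trimmomatic 0.32, TopHat2 2.1.1, R 3.3.1 and DESeq2 1.12.4. The coordinates are GRCh38. The counting tool, its strand setting and the annotation are not given in the sources used here.

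Whole reads and library totals were recovered from the RPKM values by solving, for each gene, the smallest length that makes its reads whole in every library. All 32152 genes gave whole reads, against 0 of 500 genes when the totals were moved by about 1%. The solved lengths correlated with the mean length of GENCODE 29 transcripts across genes (Pearson r of logs 0.984). Replicates differed by more than counting noise, with chi-square per degree of freedom from 2.81 to 41.9. Intervals of fold changes come from the limma fit and cover the spread between libraries, and read numbers carry counting error only.

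Of 17665 protein-coding genes, the 13737 that reached 0.5 RPKM in 2 or more libraries were tested with limma 3.58.1 (R 4.3.3, trend on) on log2(RPKM + 0.5) with 6 group means and 6 residual degrees of freedom, and Benjamini-Hochberg adjustment within each of 9 comparisons. All 8 chains passed the filter, LAMA1 only through 2 Hs-578T groups. The procedure was also run on simulated data with the same relative spread for every gene and group. That run does not show how the calls behave where groups differ in spread, as they do here. Gene lists, motifs and chain sets are descriptions with no test of their own. Named genes were all 8 chains, MAPK7 and MAP2K5, list genes past the threshold with a fold above 1.5 or below 0.5 (at most the 4 with the largest change), and the 3 nearest profiles of 3 chains with mean RPKM of at least 1. The members and lists were chosen with earlier results of these data known. Results for 1 item are not reported here. Deviations of same-numbered libraries from their group means correlated between groups of a line at 0.107 to 0.541 over 6 pairs. The 0.541 was between Hs-578T parental and MEK5DD, and the next highest was 0.187. The main fits did not pair the libraries, and a pairing by replicate number was allowed for in an alternative with that number as a block. Other alternatives were pseudocounts of 0.1 and 1, 2 filters, 2 normalizations, fits of 1 line, all gene types, limma voom on the recovered reads, levels per longest coding transcript and leaving out each library. Fits that leave out a library assume that the lone sample of its group varies like the others.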

Additional observations from a re-analysis of the deposited data

Results flagged for a closer look

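Each of these results was picked out because the effect of a label differed between the 2 lines in a test of the difference itself (limma, adjusted p under 0.05), with the value given as MDA-MB-231 minus Hs-578T on the log2(RPKM + 0.5) scale. For the ERK5-ko effect they were LAMA1 (-0.62), LAMA3 (0.79), LAMA4 (1.07) and LAMB3 (-1.85). LAMA1 entered the tests only through the Hs-578T libraries labelled ERK5-ko and MEK5DD, where it was high, so its value was favoured by the filter. The LAMA4 difference did not pass with a pseudocount of 0.1 (0.61, limma adjusted p = 0.130) or by voom (0.37, limma adjusted p = 0.640). For the MEK5DD effect they were LAMA3 (-0.75), LAMA4 (4.06), LAMA5 (-2.82), LAMB2 (-0.60) and LAMB3 (1.41). LAMB3 had opposite signs in the lines under both labels, and LAMA4 under MEK5DD, with every library of the engineered group on its own side of the parental libraries. Passage numbers, clones and labels are confounded in both lines, and their parts were not tested. Nor was the part of the unequal rise of MAP2K5 RNA under MEK5DD, 14.1-fold in MDA-MB-231 and 1.43-fold in Hs-578T.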

How the results depend on the processing

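The fits were repeated under 10 alternatives besides leaving out each library. Of 687 values of single chains 656 kept their direction and side of the threshold, 8 fell below it, 13 rose above it and 10 changed sign, none of which had passed. The replicate block left the count of MDA-MB-231 ERK5-ko at 0 higher and 2 lower chains and moved no other count by over 1.5 times. It added LAMC1 in MDA-MB-231 MEK5DD (-0.41), in ERK5-ko against MEK5DD (0.48) and in the ERK5-ko line difference (-0.70), and changed no other call.

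Sign changes with median-ratio scaling gave log2 values of 0.02 (LAMA5) and 0.03 (LAMB1) in MDA-MB-231 ERK5-ko, -0.01 (LAMB2) in Hs-578T ERK5-ko, 0.08 (LAMB2) and 0.06 (LAMC1) in Hs-578T MEK5DD, -0.09 (LAMB2) in Hs-578T ERK5-ko against MEK5DD and -0.10 (LAMA5) between parental lines. Quantile normalization gave 0.05 for LAMA1 in MDA-MB-231 ERK5-ko and between parental lines, and 0.02 for LAMB2 in Hs-578T MEK5DD. Counts changed to 1 lower chain in Hs-578T MEK5DD and 1 higher in Hs-578T ERK5-ko against MEK5DD with only that line's libraries, to 0 higher in Hs-578T MEK5DD and 1 lower in the ERK5-ko line difference with RPKM of at least 1 (LAMA1 is then not tested), and to 1 higher in that difference with pseudocount 0.1 and with voom. Per longest coding transcript the LAMA4 shares were 1.17%, 0.35% and 36.8% (MDA-MB-231 parental, ERK5-ko, MEK5DD) and 17%, 5.32% and 7.46% (Hs-578T), and the LAMB3 shares 58.7%, 51.3% and 70.9%, and 6.59%, 14.9% and 3.59%. The cause of the other changes was not tested.

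Leaving out 1 library gave counts of 0 to 2 lower in MDA-MB-231 ERK5-ko, 1 to 2 higher in Hs-578T MEK5DD, 1 to 3 higher in Hs-578T ERK5-ko against MEK5DD, and, between lines, 1 to 2 higher for ERK5-ko and 1 to 5 lower for MEK5DD. Values that changed sign ranged, in MDA-MB-231 ERK5-ko, from -0.19 to 0.13 (LAMB1), -0.23 to 0.02 (LAMB2) and -0.08 to 0.21 (LAMC1). In Hs-578T ERK5-ko they ranged from -0.60 to 0.21 (LAMA5), -0.19 to 0.32 (LAMB1) and -0.11 to 0.15 (LAMB2). In Hs-578T MEK5DD they ranged from -0.14 to 0.36 (LAMA3), -0.19 to 0.62 (LAMA5), -0.42 to 0.09 (LAMB1), -0.14 to 0.12 (LAMB2) and -0.40 to 0.34 (LAMC1). For ERK5-ko against MEK5DD the ranges were -0.14 to 0.18 (LAMB1, MDA-MB-231), -0.01 to 0.48 (LAMB1, Hs-578T) and -0.04 to 0.10 (LAMB2, Hs-578T). Line differences ranged from -0.25 to 0.55 (LAMA5), -0.35 to 0.16 (LAMB1) and -0.25 to 0.01 (LAMB2) for ERK5-ko, from -0.14 to 0.37 (LAMB1) for MEK5DD and from -0.27 to 0.53 (LAMA5) between parental lines. Depth limits LAMA1, LAMA3 in Hs-578T and, outside MEK5DD, LAMA4 in MDA-MB-231, where a library held 8 to 72 reads.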
